A study of Mus musculus with 3 samples.

Results

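The regions described here are the Zrf1 peaks of mouse neural progenitor cells that lie on Ring1B and are not broad. They were chosen by 2 measured values: a width (end minus start) below 1700 bp and an overlap of at least 1 bp with any Ring1B peak. Of the 11647 peaks in the Zrf1 list, 1710 met both conditions. Width and overlap are therefore properties of the choice, and all values that follow from them are given as description, without a test.

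The peaks come from chromatin immunoprecipitation with sequencing (ChIP-seq), in which DNA bound to a protein is pulled down with an antibody, sequenced, and summarised as intervals where reads pile up. The series holds 3 libraries from neural progenitor cells made in vitro from the embryonic stem cell line E14TG2a and grown in N2 medium with EGF and FGF2. The antibodies were raised against Zrf1 in 1 library and Ring1B in another, and rabbit IgG served in the remaining one. All 3 share this cell line and culture, no genetic change or drug is named in the labels, and each antibody has 1 library without a replicate. The cells are the product of 1 stem cell line in culture, and ChIP measures no expression, so the cell type could not be checked against marker genes here. The IgG library was not analysed here, read depth is unknown from the lists, and no value below carries an error between samples. Whether these regions repeat in a second culture was not tested.

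Ring1B (gene Rnf2) supplies the ubiquitin ligase activity of Polycomb repressive complex 1, a family of protein complexes known for keeping developmental genes silent, in part by placing a single ubiquitin on histone H2A. Zrf1 (gene Dnajc2) carries a J domain, takes part in protein folding at the ribosome, and is also known to bind chromatin with ubiquitylated H2A, where it can displace Polycomb repressive complex 1 during differentiation. In stem cells and progenitors, Polycomb complexes are known to sit mostly at CpG-rich promoters. Places where both proteins gave a peak in the same cell type are thus the places where the enzyme that writes the mark and a protein that reads it could be compared. A peak of each does not show that both were on the same DNA molecule, since ChIP-seq averages over many cells.

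The Zrf1 list carries no gene names, and the gene table at hand belongs to another assembly (GRCm38.p6), so regions are named by their mm9 coordinates and their genes, gene classes, promoters and base sequence were not analysed here.

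The shared Zrf1 peaks were compact intervals, in most cases narrower than the Ring1B peak beneath them (median width ratio 0.79, quartiles 0.56 and 0.97). In width they had a median of 1033 bp, with quartiles of 835 and 1262 bp and a range of 447 to 1697 bp (1710 peaks). Zrf1 peaks under the same limit that lay off Ring1B had a median of 744 bp (quartiles 620 and 921 bp, 9404 peaks). The 1694 Ring1B peaks under the shared Zrf1 peaks had a median width of 1352 bp (quartiles 1021 and 1777 bp), beside 1306 bp for the 9834 Ring1B peaks that met no Zrf1 peak of any width. Among all Zrf1 peaks below 700 bp, 4.52% were shared (187 of 4133). This share rose with each width class, to 46.1% at 1500 to 1700 bp (159 of 345). A wider interval has more room to meet another, and how far the choice by overlap moves the medians was not tested. The width limit reached Ring1B only through Zrf1: Ring1B peaks met only by Zrf1 peaks of 1700 bp or more are in neither Ring1B set. With those left out, the shared and unshared Ring1B peaks had nearly the same median, while the Zrf1 medians were further apart.

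**Figure D1:**
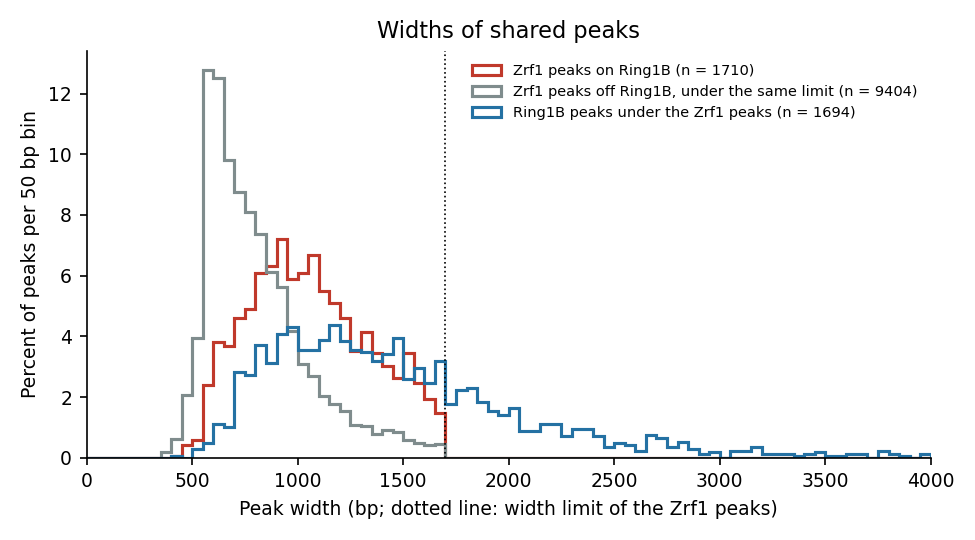
Widths of peaks in bp (x axis, 50 bp bins) as the percent of each set of peaks (y axis), for Zrf1 peaks on Ring1B, Zrf1 peaks off Ring1B under the same limit of 1700 bp, and the Ring1B peaks under the shared Zrf1 peaks; 24 Ring1B peaks wider than 4000 bp lie outside the plot. The shared Zrf1 peaks (median 1033 bp) lie between the other Zrf1 peaks (744 bp) and the Ring1B peaks (1352 bp).

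The broadest of these regions ended just below the width limit and differed in how Ring1B lay on them. The widest, 1697 bp on chromosome 16 from 17815019 to 17816716, lay wholly inside a Ring1B peak of 1968 bp. The peaks of 1694 bp on chromosome 17 (24986212 to 24987906) and of 1693 bp on chromosome 19 (46378434 to 46380127) also lay inside Ring1B, with centres 166 and 40.5 bp from its centre. In contrast, the peak of 1696 bp on chromosome 5 (110530849 to 110532545) had 42.1% of its length on a Ring1B peak of 911 bp, and that of 1684 bp on chromosome 10 (80429074 to 80430758) enclosed a Ring1B peak of 1012 bp. The other 5 of the 10 widest, on chromosomes 8, 1, 5, 2 and 11, were 1685 to 1693 bp wide and had 57.2 to 80.2% of their length on Ring1B. Of the 10 widest, 3 were thus covered completely. Just outside the limit, the nearest Zrf1 peaks on Ring1B measured 1701 to 1704 bp. These lay on chromosomes 6, 9, 13, 8 and 2, and 3 of those 5 lay wholly inside Ring1B.

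At the other end of the width range, all 5 of the narrowest shared peaks sat completely inside Ring1B. They measured 447 bp on chromosome 9 (110645366 to 110645813), 455 bp on chromosome 6 (53990104 to 53990559), 462 bp on chromosome 13 (115754434 to 115754896), 483 bp on chromosome 5 (135163892 to 135164375) and 484 bp on chromosome 6 (125490096 to 125490580). The Ring1B peaks around them were small as well, 614 to 738 bp for 4 of the 5 and 1294 bp for the one at 53990104 on chromosome 6. Across all shared peaks, the width of a Zrf1 peak and that of its Ring1B peak were weakly related (Pearson's r 0.21, Spearman's rho 0.31, over 1710 pairs taken from the same pair of libraries).

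The centres of the Zrf1 intervals lay in the central part of the Ring1B peaks more often than in the outer parts or beyond. Where a Zrf1 peak met more than 1 Ring1B peak, the one with the longest overlap was used here. The centre of the Zrf1 peak fell in the central 33.3% of the Ring1B peak in 1067 of 1710 cases (62.4%, exact 95% interval 60.1 to 64.7%), in the outer parts in 587 (34.3%), and beyond the Ring1B peak in 56 (3.27%, 2.48 to 4.23%). The median distance between centres was 157 bp (quartiles 66.5 and 344 bp), and 613 pairs (35.8%) had centres within 100 bp. Both edges agreed within 100 bp in 196 pairs (11.5%), and at least 1 edge did in 926 (54.2%). Pairs that had to overlap have near centres in part for that reason.

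Containment split the shared peaks into 2 classes of similar size and a smaller one. The Zrf1 peak lay wholly inside Ring1B in 768 cases (44.9%, exact 95% interval 42.5 to 47.3%). It was staggered, reaching past 1 edge of the Ring1B peak and stopping short of the other, in 783 (45.8%). It enclosed the Ring1B peak in 159 (9.30%). These classes went with the widths of the 2 intervals. The share inside was 17.0% on Ring1B peaks below 1000 bp and 82.2% on those of 3000 bp and over. By Zrf1 width it was 56.1% below 700 bp and 34.6% at 1500 to 1700 bp. Staggered peaks showed no side: 398 reached past the edge with the lower coordinate and 385 past the other, so that the former made up 50.8% (47.3 to 54.4%). The lists give no strand, so a side relative to transcription was not examined. The median signed distance of centres was -8 bp.

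**Figure D2:**
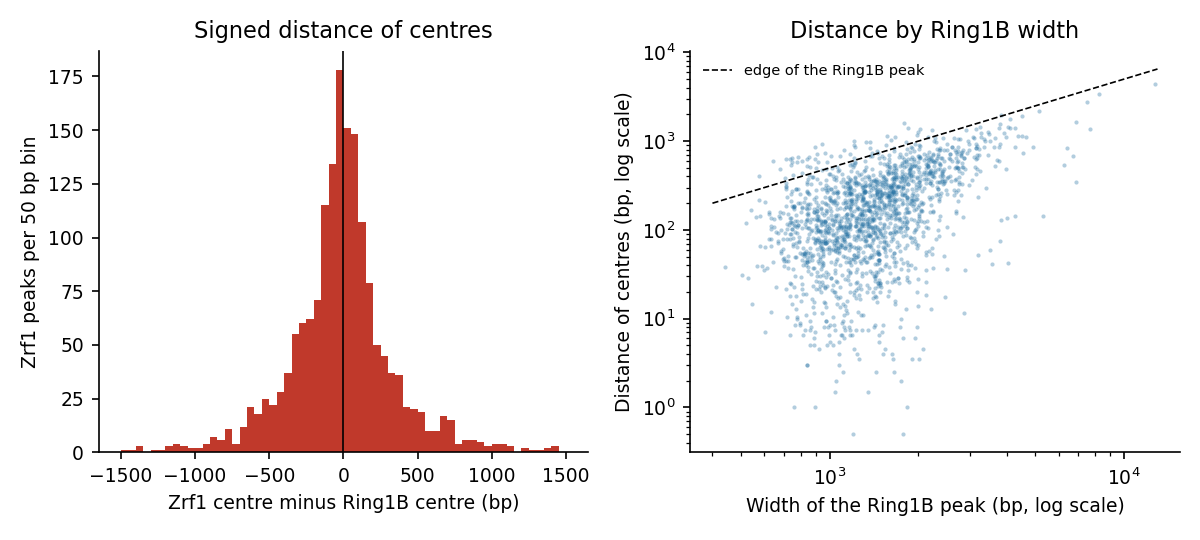
Left, number of shared Zrf1 peaks (y axis, 50 bp bins) by the signed distance from the Ring1B centre to the Zrf1 centre in bp (x axis, 10 pairs over 1500 bp apart not shown); right, absolute distance of centres against the width of the Ring1B peak, both on log scales, 1 point per Zrf1 peak, with a dashed line at the Ring1B edge. The distances are centred near 0 (median -8 bp), and 56 centres lie beyond the edge.

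The alignment loosened as the Ring1B peak grew wider. On Ring1B peaks below 1000 bp (399 Zrf1 peaks) the median distance of centres was 93.5 bp, and 67.9% of the Zrf1 centres lay in the central 33.3%. On Ring1B peaks of 1000 to 1500 bp (620 Zrf1 peaks) these values were 117 bp and 70.3%. On Ring1B peaks of 2000 to 3000 bp (233 Zrf1 peaks) they were 429 bp and 44.2%, and on those of 3000 bp and over (73 Zrf1 peaks) 864 bp and 32.9%. Since overlap was required, the largest possible distance of centres grows with Ring1B width. How much of the rise in distance follows from this was not tested. A central zone of 33.3% holds the same share of a wide as of a narrow Ring1B peak. On the widest class the share of centres in it, 32.9%, was close to the share of length it covers. Centres can also lie beyond the Ring1B peak, so the share of length does not give the share that placement without preference would yield. The median widths of the Zrf1 peaks were 879, 1057, 1152, 1123 and 1096 bp from the narrowest to the widest Ring1B class. The width limit leaves out the 266 Zrf1 peaks of 1700 bp or more on Ring1B, so these medians do not show how Zrf1 width goes with Ring1B width.

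Broad and narrow Ring1B peaks carried a compact Zrf1 peak about equally often. The share of Ring1B peaks under a compact Zrf1 peak was 13.0% below 1000 bp (402 of 3086), 14.9% at 1000 to 1500 bp (623 of 4183), 14.8% at 1500 to 2000 bp (378 of 2551) and 15.7% at 2000 to 3000 bp (226 of 1440). At 3000 bp and over it was 12.3% (65 of 530, exact 95% interval 9.59 to 15.4%). The 5 exact intervals overlapped one another. Ring1B peaks met only by a broad Zrf1 peak, which the width limit leaves out, are in the totals but not counted as carrying one.

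The 5 broadest Ring1B peaks that carried a compact Zrf1 peak show where it lay. Broader Ring1B peaks, up to 23645 bp, carried no compact Zrf1 peak. The widest Ring1B peak on no Zrf1 peak at all measured 12861 bp. Any wider one met a Zrf1 peak of 1700 bp or more, which the width limit leaves out. On chromosome 2, a Zrf1 peak of 903 bp (73109130 to 73110033) lay near 1 end of a Ring1B peak of 12754 bp (73107603 to 73120357), with 4399 bp between the centres. On chromosome 6, a peak of 1278 bp (47710751 to 47712029) began 43 bp inside a Ring1B peak of 8227 bp, and another of 1015 bp (88148917 to 88149932) lay 2741 bp from the centre of a Ring1B peak of 7472 bp. On chromosome 15, a peak of 757 bp (102796782 to 102797539) lay 1360 bp from the centre of a Ring1B peak of 7655 bp. The nearest to the centre among these 5 was on chromosome 2 from 160191496 to 160192626, at 343 bp from the centre of a Ring1B peak of 6882 bp. All 5 lay wholly inside Ring1B.

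At the closest superpositions the centres nearly coincided. On chromosome 19, the Zrf1 peak from 53723121 to 53724363 and the Ring1B peak from 53723141 to 53724344 had centres 0.5 bp apart and widths of 1242 and 1203 bp. On chromosome 12 (59313863 to 59314923) the centres were also 0.5 bp apart, with Zrf1 at 1060 bp inside Ring1B at 1775 bp. At the next 3, on chromosome 1 (189879524 to 189880607), chromosome 11 (59106915 to 59107856) and chromosome 7 (147130061 to 147130783), the centres were 1 bp apart. Of these 5 regions the first had nearly equal edges for both proteins, and in the others the centre was shared while the widths differed.

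Few regions owed their place to a marginal contact. Only 12 of the 1710 (0.702%) shared under 100 bp with Ring1B. The smallest overlap was 1 bp: a Zrf1 peak of 1404 bp on chromosome 3 (89019048 to 89020452) began at the end of a Ring1B peak of 1791 bp. The next smallest were 9 bp on chromosome 10 (77706572 to 77707198), 14 bp on chromosome 2 (150492517 to 150493106), 26 bp on chromosome 7 (19864963 to 19865535) and 30 bp on chromosome 17 (67474070 to 67474686). Just outside the choice, the Zrf1 peaks nearest to Ring1B without touching it were separated from it by 2 bp on chromosome 2 (168586787 to 168587361), 5 bp on chromosome 5 (112823202 to 112823871) and 6 bp on chromosome 15 (98887146 to 98888199). Such near misses were few: 19 of the 9404 compact Zrf1 peaks off Ring1B came within 100 bp of it and 148 (1.57%) within 1 kb. Ring1B covered a median of 98.3% of the length of the 1710 shared Zrf1 peaks.

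At 28 Ring1B peaks 2 compact Zrf1 peaks stood on the same interval, and no Ring1B peak carried more than 2. The gap between the 2 Zrf1 peaks ran from 5 to 1148 bp with a median of 211 bp, and it was at most 200 bp in 14 of the 28. The Ring1B peaks that carried 2 had a median width of 2203 bp (range 745 to 4251 bp), and the 2 Zrf1 peaks covered a median of 80.1% of them. From the first to the last base, the 2 Zrf1 peaks spanned 1700 bp or more in 24 of the 28, so most would have fallen outside the width limit had they been reported as 1 interval.

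The tightest of these doublets was on chromosome 17, where Zrf1 peaks of 1291 bp (35106980 to 35108271) and 1598 bp (35108276 to 35109874) were 5 bp apart on a Ring1B peak of 2604 bp. On chromosome 15, peaks of 623 bp (58045863 to 58046486) and 721 bp (58046517 to 58047238) were 31 bp apart inside a Ring1B peak of 1650 bp. On chromosome 4, peaks of 988 bp (151400621 to 151401609) and 1128 bp (151401646 to 151402774) were 37 bp apart and covered 96.1% of a Ring1B peak of 2121 bp. The widest Ring1B peak with 2 Zrf1 peaks, 4251 bp on chromosome 11 (117827635 to 117831886), had them 65 bp apart. The largest gap, 1148 bp, was on chromosome 4, between peaks of 1422 bp (155026111 to 155027533) and 952 bp (155028681 to 155029633), on a Ring1B peak of 3266 bp. The doublets thus ranged from intervals that nearly touched to peaks standing toward opposite edges of a Ring1B peak.

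**Figure D3:**
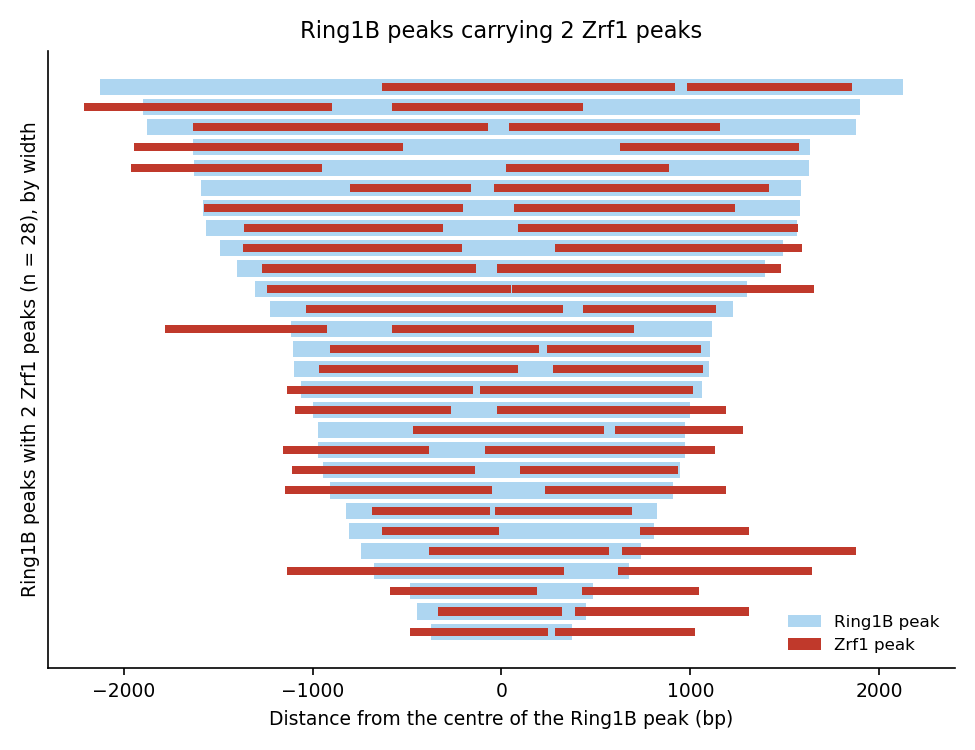
The 28 Ring1B peaks that carry 2 compact Zrf1 peaks, 1 row each, sorted by Ring1B width (blue) with the Zrf1 peaks drawn over them (red); the x axis is the distance from the centre of the Ring1B peak in bp. In 14 of the 28 rows the gap between the red bars is at most 200 bp.

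The reverse arrangement, 1 compact Zrf1 peak over 2 neighbouring Ring1B peaks, occurred 12 times. The gap between the 2 Ring1B peaks had a median of 37.5 bp and a range of 8 to 238 bp. On chromosome 8, a Zrf1 peak of 1211 bp (73117729 to 73118940) crossed an 8 bp gap between Ring1B peaks of 814 and 2300 bp. On chromosome 3, a Zrf1 peak of 1507 bp (87733623 to 87735130) crossed a 46 bp gap between Ring1B peaks of 764 and 710 bp. On chromosome 11, the Zrf1 peak from 68768673 to 68769910 was both the second of a doublet on 1 Ring1B peak and a bridge over 19 bp to the next. The same held on chromosome 9 for the peak from 107579062 to 107580089, across 10 bp. At these 2 places the breaks in the Zrf1 list and in the Ring1B list alternated.

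Most shared regions lay on a Ring1B peak without a close Ring1B neighbour. Ring1B peaks separated by gaps of at most 5 kb were joined into clusters. By this measure 1384 of the shared Zrf1 peaks (80.9%, exact 95% interval 79.0 to 82.8%) stood on a lone Ring1B peak, 303 (17.7%) on a Ring1B peak in a cluster of 2 to 4, and 23 (1.35%, 0.854 to 2.01%) on one in a cluster of 5 or more. Among Ring1B peaks that met no Zrf1 peak, 74.8% were alone, 21.1% in clusters of 2 to 4 and 4.09% (3.71 to 4.50%) in clusters of 5 or more. Within Ring1B clusters of exactly 2 in which a compact Zrf1 peak met 1 and the other met none, it was the wider Ring1B peak that carried Zrf1 in 89 of 179 (49.7%, 42.2 to 57.3%). The median widths there were 1370 bp with and 1242 bp without Zrf1, and the exact interval of the share includes 50%.

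The 23 compact Zrf1 peaks in large Ring1B clusters were spread over 16 of the 61 such clusters. The cluster with the most was on chromosome 8 from 107777553 to 107807442, with 7 Ring1B peaks, of which 4 carried a compact Zrf1 peak. The 4 Zrf1 peaks measured 1422 bp (107782733 to 107784155), 1169 bp (107791920 to 107793089), 802 bp (107802574 to 107803376) and 1095 bp (107806632 to 107807727). When shared Zrf1 peaks were joined over gaps of at most 20 kb, this region reached to 107817394 and held 5 of them in 34.7 kb, more than any other. Clusters with 2 were found at 71364216 to 71385574 of chromosome 2, 66772163 to 66790397 of chromosome 3, 79952534 to 79969453 of chromosome 10, and 102782855 to 102852418 of chromosome 15. The last held 16 Ring1B peaks, 2 of them with Zrf1. The chromosome 8 cluster thus had a compact Zrf1 peak on 4 of 7 Ring1B peaks, and the chromosome 15 cluster on 2 of 16. Counting Zrf1 peaks of any kind, on Ring1B or not, the chromosome 8 cluster held 5 and the chromosome 15 cluster 2.

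As loci, the shared peaks were mostly single. Joined over gaps of at most 20 kb, the 1710 peaks formed 1588 loci, of which 1480 held 1 peak, 96 held 2, 11 held 3 and 1 held 5. The median gap from a shared peak to the nearest other shared peak was 167 kb (quartiles 51.8 and 561 kb). Loci and gaps were not computed for other Zrf1 peaks, so this spacing is not shown to be particular to shared peaks. Another Zrf1 peak of any kind lay within 5 kb of 244 shared peaks (14.3%, exact 95% interval 12.6 to 16.0%), close to the 13.5% (12.8 to 14.2%) of compact Zrf1 peaks off Ring1B. The exact intervals of these 2 shares overlapped.

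The kind of neighbour was then counted. Reading along each chromosome, the next Zrf1 peak after a shared one was itself shared in 33.1% of cases when it followed within 5 kb (45 of 136), but 26 of these were doublets with their longest overlap on the same Ring1B peak, and without them the share was 17.3% (19 of 110, exact 95% interval 10.7 to 25.7%). After any other Zrf1 peak it was 10.7% (81 of 759, 8.57 to 13.1%). At gaps of 20 to 50 kb the next peak was shared in 22.9% of cases after a shared peak (81 of 353, 18.7 to 27.7%) and in 13.7% after another (250 of 1824, 12.2 to 15.4%). At 50 to 200 kb the shares were 18.8% (15.7 to 22.2%) and 14.6% (13.5 to 15.8%). At 200 kb to 1 Mb they were 13.0% and 12.7%. At 5 to 20 kb they were 21.3% (16.6 to 26.7%) and 14.9% (13.1 to 16.7%). The 2 intervals did not overlap at 20 to 50 kb and overlapped in each other range, by little at 5 to 20 kb and 50 to 200 kb. Counting only next peaks under 1700 bp, an alternative added after the data were seen, they also did not overlap at 5 to 20 kb (23.4%, 18.3 to 29.2%, against 15.7%, 13.8 to 17.6%) and at 50 to 200 kb (19.8%, 16.6 to 23.4%, against 15.2%, 14.0 to 16.4%). Neighbouring peaks are not replicates and the regional density of Ring1B was not held fixed, so these intervals cover counting error only and no test was made.

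**Figure D4:**
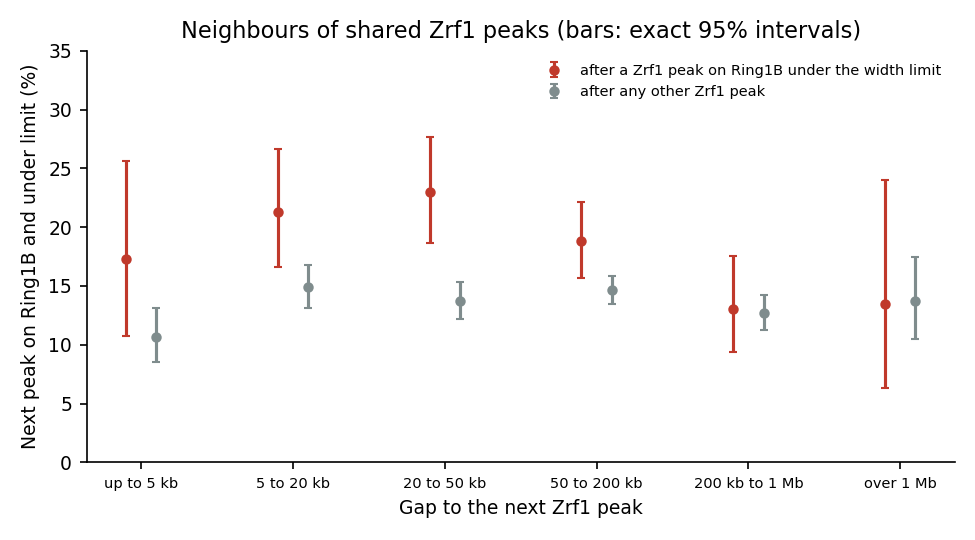
Percent of cases in which the next Zrf1 peak along the chromosome is also on Ring1B and under 1700 bp (y axis), by the gap to it (x axis), after a shared Zrf1 peak (red) and after any other Zrf1 peak (grey), without pairs on the same Ring1B peak; bars are exact 95% intervals. The red points lie above the grey ones up to 200 kb (22.9% against 13.7% at 20 to 50 kb) and beside them at 200 kb to 1 Mb (13.0% against 12.7%).

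At the scale of 1 Mb, the shared regions were widely spread. They fell into 883 windows, of which 498 held 1, while the 63 windows with 5 or more held 393 of the 1710. The richest was chromosome 10 from 80 to 81 Mb with 12, among 38 Zrf1 and 37 Ring1B peaks in the window. Windows with 10 followed on chromosome 4 (155 to 156 Mb), chromosome 15 (76 to 77 Mb) and chromosome 17 (24 to 25 Mb), and one with 9 on chromosome 8 (124 to 125 Mb), a count that windows on chromosomes 11 and 19 also reached. The first 5 windows were rich in both lists, with 23 to 38 Zrf1 and 19 to 37 Ring1B peaks each. How the other Zrf1 peaks spread over windows was not compared, so this spread is not shown to be particular to shared peaks.

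Chromosome by chromosome, the shared peaks followed the number of genes. With the protein-coding genes per chromosome taken from the GRCm38.p6 gene table, which needs no coordinates, the count of shared peaks rose with the count of genes across the 19 autosomes (Pearson's r 0.84, Spearman's rho 0.80), as did the counts of all Zrf1 peaks (0.76 and 0.85) and all Ring1B peaks (0.90 and 0.94). These points share the libraries and chromosome length, and the values are a description. Chromosome 15 had the most shared peaks for its genes, 104 peaks or 13.4 per 100 genes. Chromosome 8 with 10.7 and chromosome 11 with 10.6 followed. Of the Zrf1 peaks on chromosomes 15, 8 and 11, 18.8%, 14.0% and 17.9% were shared. Chromosome 8 also had the most compact Zrf1 peaks off Ring1B for its genes, 61.2 per 100 genes, beside 54.6 on chromosome 15 and 45.0 on chromosome 11. Chromosome 6 was the lowest autosome with 63 peaks or 5.60 per 100 genes. Chromosome 7 had 135 shared peaks, which was 21.1% of its Zrf1 peaks, the highest share of any chromosome, but 6.65 per 100 genes. The X chromosome had 5 shared peaks, or 0.518 per 100 genes, and both lists were sparse there, with 71 Zrf1 and 130 Ring1B peaks. The Y chromosome had none of its 2 Zrf1 peaks on Ring1B.

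**Figure D5:**
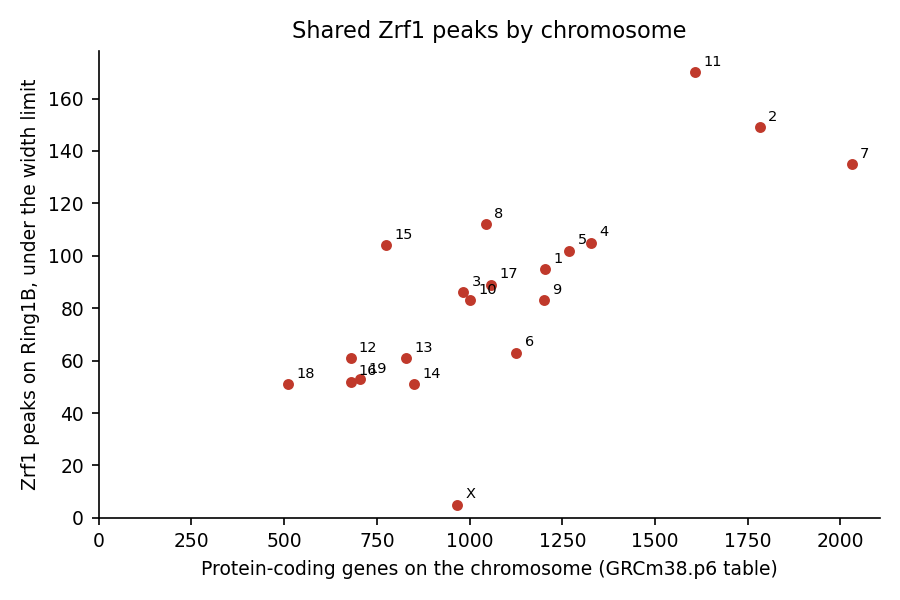
Number of shared Zrf1 peaks (y axis) against the number of protein-coding genes in the GRCm38.p6 table (x axis), 1 labelled point for each of chromosomes 1 to 19 and X. Chromosome 15 (104 peaks) lies above the trend of the autosomes, chromosome 6 (63 peaks) below it, and the X chromosome has 5 peaks.

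Widths and alignment were also taken by autosome. The median width of the shared Zrf1 peaks ran from 948 bp on chromosome 4 to 1113 bp on chromosome 8, and the median distance of centres from 115 bp on chromosome 13 to 203 bp on chromosome 10. The 5 shared peaks of the X chromosome were narrower, with a median of 663 bp on Ring1B peaks of a median of 824 bp, a value that rests on those 5 regions.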

How the data were processed

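Both peak lists were deposited without a header as chromosome, start and end. Per the submitters' processing notes, Bowtie 0.12.7 and MACS 1.4.2 were used with the build mm9; the sources used here do not state the threshold, the control or later filtering. The antibody that names each list matches the labels of 1 library. The lists hold no scores or summits, so width is no measure of strength. Overlaps, widths, gaps and shares with exact (Clopper-Pearson) 95% binomial intervals were computed with Python 3.11.15, NumPy 2.4.6, SciPy 1.17.1 and pandas 2.3.3. The overlap code found all 2307 overlaps planted in simulated lists, and bedtools 2.31.1 gave the same 1710 members. Named regions were the 10 widest, the 5 narrowest, the 5 with the nearest centres (ties by width ratio), the 5 on the widest Ring1B peaks, those at the limits, doublets and the densest windows; which doublets, bridges, large clusters, smallest overlaps and chromosomes to name was decided after their values were seen. The members and all measures were chosen with earlier results of these data known. Gene classes, distance to gene starts and CpG content were planned but not run, since no annotation or genome of mm9 was used here. Coordinates are as deposited; whether starts count from 0 or 1 is not given.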

Additional observations from a re-analysis of the deposited data

How the results depend on the processing

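Depth is unknown, so a missing peak does not show missing binding, and no paired analysis was possible because each antibody has 1 library and no result comes from a test. The number of shared compact peaks stayed within 1.5 times 1710 under all 8 alternatives, from 1306 with a reciprocal overlap of 50% to 1976 without a width limit. The median distance of centres was 111 bp with reciprocal 50%, where pairs far apart no longer enter, and 148 to 162 bp otherwise. The share on a lone Ring1B peak was 88.6% with gaps of 2 kb and 71.5% with 10 kb. The share with another Zrf1 peak nearby was 7.37% within 2 kb and 25.4% within 10 kb. Both shares moved as the distances themselves imply. Of compact Zrf1 peaks off Ring1B, 6.31% had another Zrf1 peak within 2 kb and 22.8% within 10 kb. Centres lay in the central 50% of Ring1B in 80.0% and in the central 25% in 51.1%. The share of shared peaks followed within 5 kb by another was 17.3% without doublets on 1 Ring1B peak, which makes that value rest largely on doublets. The alternatives without doublets, with the next peak under 1700 bp, with 1 bp longer peaks and without chromosome ends were added after the data were seen. Alternatives for gene starts and CpG content were not run.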

Other observations

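The shared compact peaks were somewhat more often found near the ends of the mapped part of a chromosome: 67 of 1710 (3.92%, exact 95% interval 3.05 to 4.95%) were at most 1 Mb from the outermost Zrf1 peaks of their chromosome, against 199 of 9404 compact Zrf1 peaks off Ring1B (2.12%, 1.83 to 2.43%). Without those outer parts, the share of shared peaks with another Zrf1 peak within 5 kb was 14.3%, as with them. IgG signal in these regions was not examined, and the difference was not tested.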
